A study of Mus musculus with 6 samples.

Results

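Genes of immune checkpoints and of the extracellular adenosine pathway, namely Cd274, Pdcd1lg2, Pdcd1, Ctla4, Lag3, Havcr2, Vsir, Lgals9, Entpd1 and Nt5e, were followed in primary and metastatic ovarian tumours of the same mice. They were chosen by symbol among probe sets to which the array annotation gives exactly 1 gene symbol, and all 10 were found, each on 1 probe set, among 30142 genes measured. Vsir is listed in that annotation under its older name and was matched by its Entrez Gene number, 74048. The tumours arose from ID8-VEGF cells, a mouse ovarian surface epithelial line that makes vascular endothelial growth factor, placed under the ovarian bursa. Mice C1M3, C1M5 and C2M3 each gave 1 late primary and 1 late metastatic tumour, so that 3 arrays stood against 3. Strain, age, any treatment or surgery and the site of each metastasis are not given in the labels, and the source name of the primary tumour labelled C2M3 reads C2M2. The tumours were whole pieces of tissue that also hold host cells.

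Checkpoint genes encode pairs of surface proteins that restrain T cells and other leukocytes. Cd274 and Pdcd1lg2 encode PD-L1 and PD-L2, the ligands of PD-1, which Pdcd1 encodes, and Ctla4, Lag3 and Havcr2 (TIM-3) encode further inhibitory receptors of activated or exhausted T cells, with Havcr2 also found on myeloid cells. Vsir encodes VISTA, an inhibitory protein of myeloid cells and T cells, and Lgals9 encodes galectin-9, a secreted lectin that binds TIM-3. In the adenosine arm, the ectoenzyme CD39 (Entpd1) removes phosphates from extracellular ATP and ADP to leave AMP, and CD73 (Nt5e) turns AMP into adenosine, which dampens immune cells through its receptors.

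Of the 10 genes, Lgals9 alone stood above the negative controls, and no gene differed between metastatic and primary tumours in the test across all genes. Nt5e was highest in the tumours of mouse C1M5, and Vsir and Entpd1 were lowest in the primary tumour of C1M3 and highest in the tumours of C2M3. The probe sets of PD-1, CTLA-4, LAG-3, TIM-3 and both PD-1 ligands lay below the 75th percentile of the negative controls on every array. Values are log2 intensities, so that a difference of 1 is a 2-fold change, and the number of arrays limits their precision.

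The level of each gene was read against 5222 negative control probe sets of the same array, and a gene was counted as above them when it passed their 95th percentile on all 3 arrays of a group. That percentile lay between 8.04 and 8.79 on the 6 arrays, and the median control lay between 4.63 and 4.90. By this rule 1 of the 10 genes was above the controls in each group, against 13.7% of all genes. The 90th percentile of the negative controls was already 7.06 to 7.72, so 1733 olfactory and vomeronasal receptor genes served as a second reference. Their 95th percentile was 4.78 to 6.11, and 4 genes (Lgals9, Nt5e, Entpd1 and Vsir) exceeded it on all 3 arrays of a group, against 38.4% of all genes. Lgals9 and Nt5e did so in both groups, and Vsir and Entpd1 in the metastatic group only. In the primary tumour of C1M3, Vsir read 5.42 and Entpd1 5.52, below the percentile of 5.83 there. Because probe sets differ in how brightly they report RNA, levels of different genes are not ranked here.

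**Figure D1:**
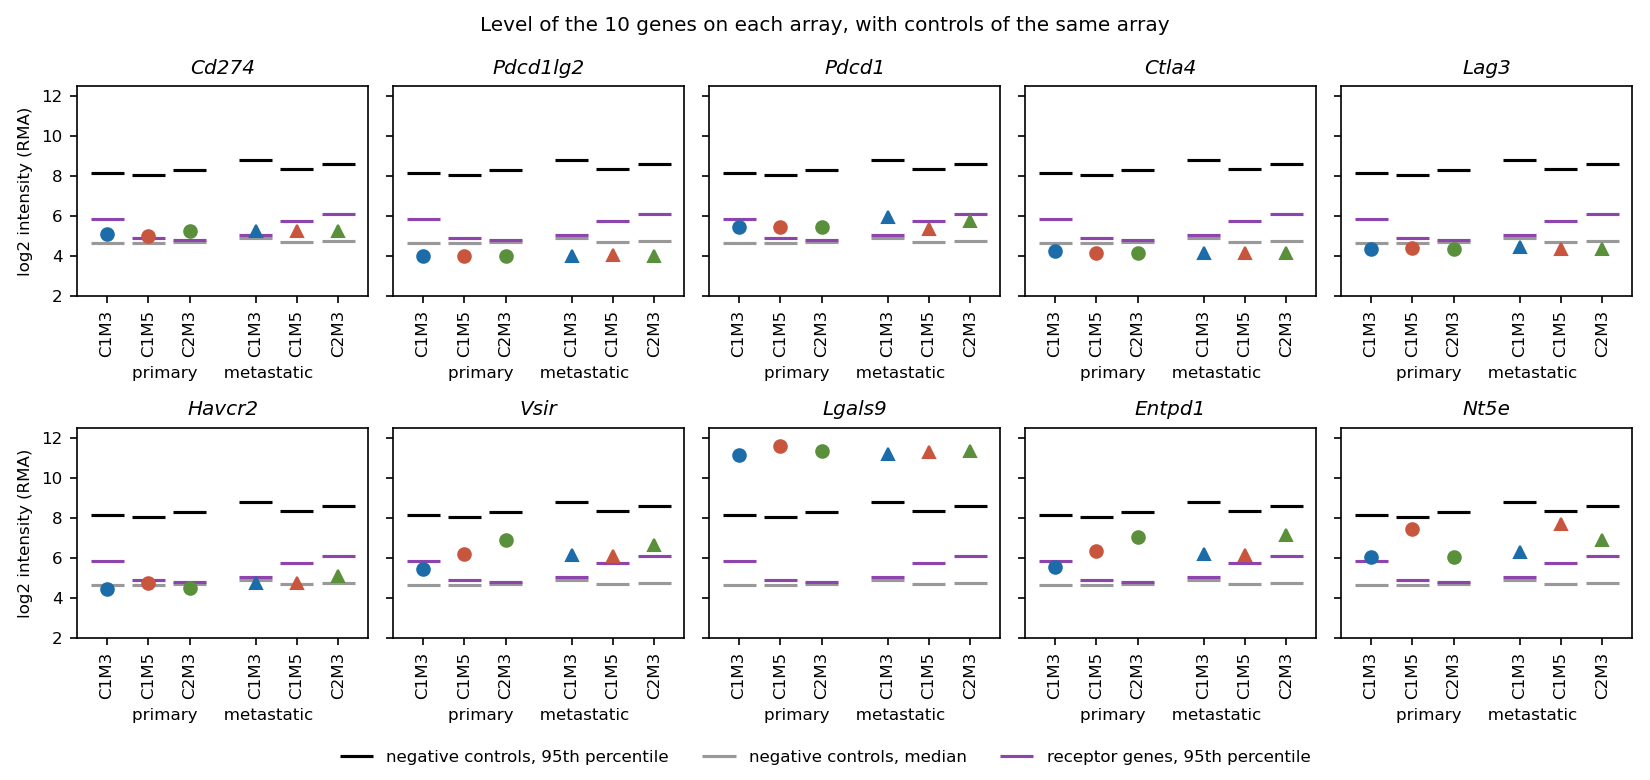
Log2 intensity of each of the 10 genes (vertical axis) on the 6 arrays (horizontal axis, circles for primary and triangles for metastatic tumours, coloured by mouse), with bars for the median and 95th percentile of the negative controls and the 95th percentile of the receptor genes of that array. Lgals9 sits near 11.3 on every array, above all bars, while Pdcd1lg2, Ctla4 and Lag3 sit below the median control.

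The PD-1 ligand genes were dim. In C1M3, C1M5 and C2M3, in that order, Cd274 read 5.09, 4.97 and 5.22 on the primary arrays against 5.22, 5.25 and 5.22 on the metastatic ones. On each array it exceeded 57.1% to 62.3% of the negative controls. Within those mice it differed by 0.14, 0.28 and 0.00, and the groups overlapped. The mean difference, metastatic minus primary, was 0.14 (SE 0.07, 95% interval -0.05 to 0.33, limma adjusted p = 0.842). In the RefSeq table the interval of Cd274 overlaps that of Plgrkt, whose own probe set read 6.43 to 7.08, and whether either probe set takes signal from the other gene was not tested.

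Pdcd1lg2, the neighbour of Cd274 in the genome, read 3.99, 3.96 and 4.01 in the primary tumours and 4.01, 4.02 and 4.01 in the metastatic tumours, in the same order of mice. All 6 values were within 0.06 of each other and exceeded 28.8% to 32.7% of the negative controls. The difference was 0.02 (SE 0.04, 95% interval -0.07 to 0.12).

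The receptor genes of T cells read much the same way. Pdcd1 was 5.46 on all 3 primary arrays and 5.94, 5.32 and 5.72 on the metastatic arrays of C1M3, C1M5 and C2M3. The metastatic tumours of C1M3 and C2M3 were above every primary tumour and that of C1M5 was below, so the groups overlapped, with a difference of 0.20 (SE 0.17, 95% interval -0.23 to 0.62). The difference of Pdcd1 was 0.37 when the C1M5 metastatic array was left out and 0.059 when the C1M3 metastatic array was. The gene exceeded 63.8% to 71.2% of the negative controls.

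Ctla4 held the same value, 4.16, on 5 of the 6 arrays and 4.23 in the primary tumour of C1M3. Lag3 held 4.36 on 4 arrays as deposited, also read 4.36 to 2 decimals in the primary tumour of C1M5, and was 4.42 in the metastatic tumour of C1M3. Their differences were -0.02 (SE 0.04) and 0.02 (SE 0.04), and neither passed 42.2% of the negative controls on any array. Identical values were common in the deposited table: 5 of the 10 genes had the same value on at least 3 arrays, as had 28.6% of all genes.

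Havcr2 had the smallest unadjusted p of the 10 genes in this fit, while Nt5e had it with the mouse as a block and Cd274 with array weights. Its values for C1M3, C1M5 and C2M3 were 4.43, 4.76 and 4.48 on primary arrays and 4.76, 4.76 and 5.10 on metastatic arrays. It was higher in the metastatic tumour of C1M3 and C2M3, by 0.33 and 0.62, and equal in both tumours of C1M5, with which the groups met. The mean difference of 0.32 (SE 0.14, 95% interval -0.05 to 0.68) had an unadjusted p = 0.0758 and an adjusted p = 0.842 by limma. All values of Havcr2 lay between the 43.9% and the 58.3% mark of the negative controls.

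Lgals9 was the bright member. It read 11.14, 11.59 and 11.33 in the primary tumours and 11.22, 11.29 and 11.33 in the metastatic tumours, above at least 98.4% of the negative controls on every array. Its whole range over the 6 arrays was 0.45. The groups overlapped, and the difference was -0.07 (SE 0.12, 95% interval -0.39 to 0.25, limma adjusted p = 0.891). The sign rested on the primary tumour of C1M5, without which the difference was 0.044.

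Vsir, Entpd1 and Nt5e were the genes with a range of at least 1 over the 6 arrays, 3 of 10, against 21.1% of all genes. Primary Vsir was 5.42 in C1M3, 6.20 in C1M5 and 6.87 in C2M3, and metastatic Vsir was 6.15, 6.08 and 6.63. The lowest array was the primary tumour of C1M3 and the highest that of C2M3, so that the metastatic values fell inside the primary range. The difference was 0.12 (SE 0.41, 95% interval -0.93 to 1.17, limma adjusted p = 0.956). It was 0.72 within C1M3, -0.12 within C1M5 and -0.24 within C2M3. With the mouse as a block the SE of the Vsir difference was 0.25 and its 95% interval -0.67 to 0.91. The Vsir difference was -0.25 when the C1M3 primary array was left out, without the metastatic tumour of C2M3 it was -0.053, and without the primary tumour of C2M3 it was 0.47. Vsir lies within the interval of Cdh23 in the RefSeq table, and the Cdh23 probe set read 4.49 to 5.37.

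Entpd1, the first enzyme of the adenosine pathway, read 5.52, 6.35 and 7.03 in the primary tumours and 6.19, 6.12 and 7.14 in the metastatic tumours, in the same order. Both tumours of C2M3 were above all others, and the primary tumour of C1M3 was below all others. The mean difference of 0.18 (SE 0.49, 95% interval -1.08 to 1.45, limma adjusted p = 0.937) held 0.67 within C1M3, -0.23 within C1M5 and 0.11 within C2M3. With the mouse as a block the SE of the Entpd1 difference was 0.22 and its 95% interval -0.51 to 0.87. The Entpd1 difference was -0.21 when the C1M3 primary array was left out, without the metastatic tumour of C2M3 it was -0.146, and without the primary tumour of C2M3 it was 0.55. Entpd1 exceeded 71.2% to 88.2% of the negative controls. In the RefSeq table its interval overlaps that of Gm8783, whose probe set read 11.79 to 12.64. The Gm8783 probe set was lowest in the primary tumour of C1M3, at 11.79. It was highest in the tumours of C2M3, at 12.29 and 12.64, as Entpd1 was. Whether the signals of Entpd1 and Gm8783 mix was not tested.

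Nt5e, the enzyme that makes adenosine, read 6.04 in the primary and 6.31 in the metastatic tumour of C1M3, 7.42 and 7.69 in those of C1M5, and 6.05 and 6.88 in those of C2M3. Both tumours of C1M5 were above the other 4. It was the only one of the 10 genes higher in the metastatic tumour of all 3 mice, by 0.26, 0.27 and 0.83, as were 11.1% of all genes. None of the 10 was lower in all 3 mice, as 8.64% of all genes were. The groups overlapped, and the mean difference of 0.46 (SE 0.55, 95% interval -0.95 to 1.86) had an adjusted p = 0.853 by limma. With the mouse as a block the SE of the Nt5e difference was 0.16 and its 95% interval -0.05 to 0.96 (adjusted p = 0.841). Without the metastatic tumour of C1M5 the difference of Nt5e was 0.09, and without the primary tumour of C1M5 it was 0.91. Nt5e exceeded 75.6% to 92.4% of the negative controls.

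**Figure D2:**
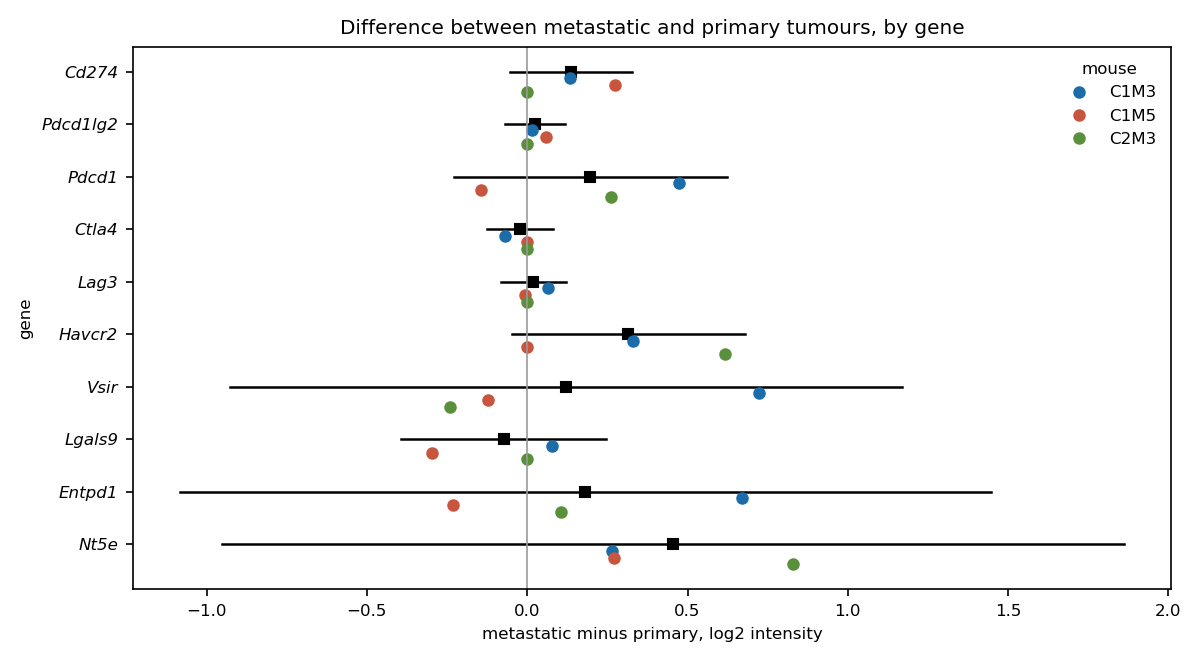
Metastatic minus primary log2 intensity (horizontal axis) for each gene (vertical axis), with the mean as a square, its 95% interval from limma as a line and the 3 mice as coloured dots. The interval is from the fit without the mouse, so it takes in spread between mice and does not measure the spread of the 3 dots. All 10 intervals include 0, and the intervals of Vsir, Entpd1 and Nt5e are the widest.

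Across the 10 genes, the metastatic mean was the higher for 8 and the lower for 2, and their median difference was 0.13, where 55.0% of all genes had a higher mean and the median of all genes was 0.02. The share of genes called at an adjusted p under 0.05 was 0.0% in limma, 0 of 30142, with a smallest adjusted p of 0.407, and 0 of the 10 genes were called. At an unadjusted p under 0.05 there were 0 of the 10, against 4.21% of all genes, and no gene of the 10 had groups without overlap, against 7.63%. Within C1M3, 9 of the 10 were higher and 1 lower in the metastatic tumour, within C1M5 3 were higher, 5 lower and 2 equal, and within C2M3 4 were higher, 1 lower and 5 equal. Their median was 0.20 within C1M3 and 0.00 within C1M5 and C2M3, where the median of all genes was -0.02, 0.00 and 0.05 in C1M3, C1M5 and C2M3. Centring each array on its median lowered the differences of all genes by 0.11. The count was then 6 higher and 4 lower, Pdcd1lg2 at -0.08 and Lag3 at -0.09 turned negative, and the median was 0.02. Over all genes, centring moved the share with a higher metastatic mean from 55.0% to 30.4%, and the genes at an unadjusted p under 0.05 from 867 higher and 402 lower to 453 higher and 1123 lower.

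By the donor labels, the mouse held more of the variation of Vsir, Entpd1 and Nt5e than the tissue did. The correlations over genes given with the processing bear out the labelled pair only in C1M5, which limits these shares. Of the sum of squares over the 6 arrays, the mouse took 76.2% for Vsir, 86.1% for Entpd1 and 83.6% for Nt5e, and the tissue 1.73%, 2.67% and 12.3%. The medians over all genes were 39.7% for the mouse and 18.2% for the tissue. The mouse term has more degrees of freedom than the tissue term, so its share tends to be larger even without any effect. Vsir, Entpd1 and Nt5e had also been singled out by their range, which the genes behind these medians had not. A moderated F test of the mouse term in limma, chosen after these values were seen, gave Nt5e an unadjusted p = 0.0111 (adjusted p = 0.667) and Entpd1 an unadjusted p = 0.0399 (adjusted p = 0.797). Vsir had an unadjusted p = 0.108 (adjusted p = 0.88) in that limma test. No gene was called by it, 0.0% of all genes, and 6.1% of all genes had an unadjusted p under 0.05. Leaving out single arrays moved the unadjusted p of Nt5e between 0.00454 and 0.103 that of Entpd1 between 0.0217 and 0.236, and that of Vsir between 0.00724 and 0.409.

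**Figure D3:**
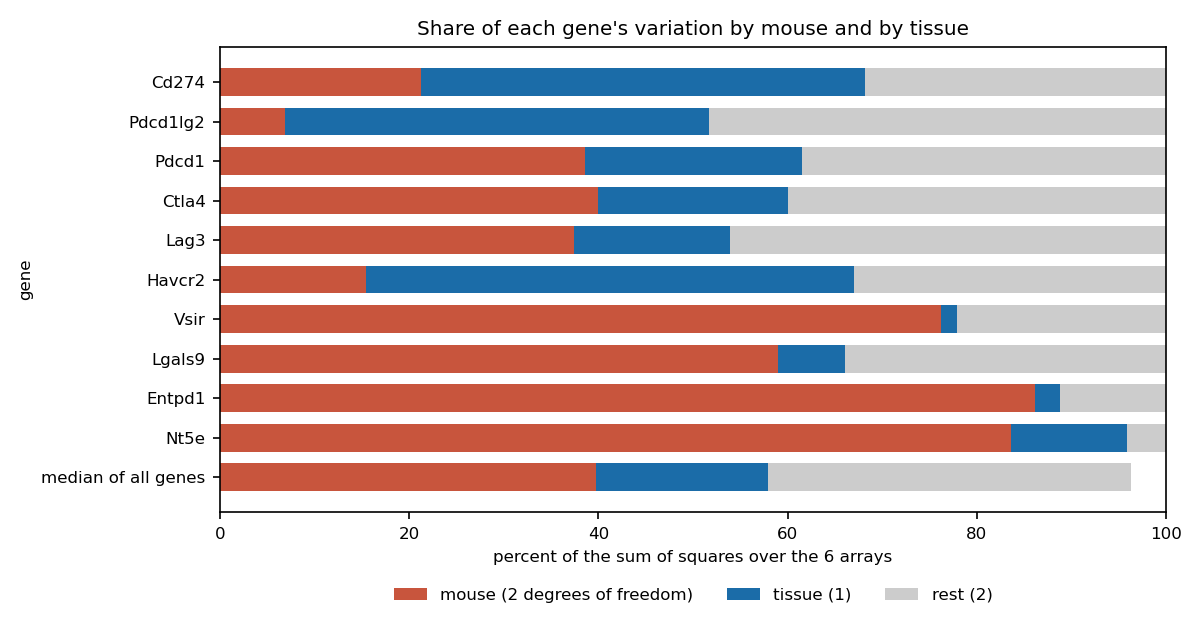
Percent of the sum of squares over the 6 arrays (horizontal axis) taken by mouse, tissue and the rest, for each gene and as separate medians over all genes, which do not add to 100. The mouse takes 76.2% to 86.1% in Vsir, Entpd1 and Nt5e, and has more degrees of freedom than the tissue. For genes with hardly any spread, such as Ctla4 with a range of 0.07, the shares divide very small differences.

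Macrophage and monocyte genes shared their lowest array with Vsir and Entpd1. The mean over 17 of 18 listed macrophage and monocyte genes was 6.10, 7.92 and 8.46 on the primary arrays of C1M3, C1M5 and C2M3 and 7.58, 7.78 and 8.34 on the metastatic arrays. It was lowest in the primary tumour of C1M3 and highest in the tumours of C2M3, while the order of the arrays between differed from that of Vsir and of Entpd1. The means of the T cell, regulatory T cell, dendritic cell and B and plasma cell lists were also lowest in the primary tumour of C1M3, at 4.63, 4.57, 5.16 and 4.64. All but that of B and plasma cells were highest in the tumours of C2M3, so the pattern was not particular to macrophage genes. The means of the cytotoxic T and NK cell list and of the neutrophil list were instead lowest in the primary tumour of C1M5, at 4.59 and 4.74. Of the 17 macrophage and monocyte genes, 14 were above the receptor genes in a group, against 38.4% of all genes. Ptprc, the common leukocyte antigen gene, read 5.48 in the primary tumour of C1M3 and 6.97 to 7.90 on the other arrays, and Csf1r, a macrophage growth factor receptor gene, read 5.66 and 7.78 to 8.78. In bulk tissue, fewer cells of a type and less RNA per cell cannot be told apart. The part of macrophages or other leukocytes in the values of Vsir and Entpd1 was not tested.

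Stromal genes shared parts of this pattern. For endothelial cells, which also carry CD39, the mean over 10 of 11 listed genes was 6.31, 7.04 and 8.26 on the primary arrays and 7.08, 6.14 and 7.18 on the metastatic arrays, highest in the tumours of C2M3 and lowest in the metastatic tumour of C1M5. The mean of 11 fibroblast and mural cell genes was 6.78, 8.63 and 9.42 on primary and 8.21, 7.92 and 8.98 on metastatic arrays, lowest in the primary tumour of C1M3 and highest in the tumours of C2M3, as for the macrophage list. The part of stromal cells in the values of Vsir and Entpd1 was not tested. For 11 epithelial and mesothelial genes, markers of the tumour cells, it was 9.51, 10.70 and 9.62, and 9.39, 10.72 and 9.51. That list was highest in both tumours of C1M5, as Nt5e was. Its genes did not all do so: Wt1 was highest in the metastatic tumour of C1M3, and Lrrn4 was highest in that of C2M3. Msln, the mesothelin gene, read 10.91 and 11.13 in the tumours of C1M5 and 7.15 to 8.02 in the other tumours. Wt1, a mesothelial and ovarian surface epithelial transcription factor gene, was above the negative controls on all arrays, at 10.11 to 11.07. The part of tumour cells in the value of Nt5e was not tested. Of the cell type lists, that of adipocytes had the median difference farthest from 0, at -2.06. All 11 measured genes had the lower mean in metastases, none was called in limma, and their list mean was 5.71, 8.75 and 10.70 on the primary arrays against 5.46 to 5.89 on the metastatic ones. The part of fat tissue in the differences of the 10 genes was not tested.

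The genes with the profile most like that of each varying member were found by the root mean square difference of the 6 log2 values, each gene centred on its own mean, among 8709 genes above the receptor genes, after predicted, clone-named and small RNA genes were set aside. With the negative controls as the bar no member qualified, so the receptor genes were used after the values had been seen. Vsir and Entpd1 passed that second bar in the metastatic group only. Vsir was followed most closely by Cyth4, at 0.07, Abcb1a, at 0.09, and Dock2, at 0.10, where the deviation of Vsir itself from its mean was 0.46. Cyth4 and Dock2 are leukocyte genes of small GTPase signalling, and Dock2 read 5.57 in the primary tumour of C1M3 and 6.46 to 7.24 elsewhere. Entpd1 was followed by Hsph1, a heat shock protein gene, at 0.11, Trim12c, at 0.12, and Cd200, at 0.12, against a deviation of 0.56. Cd200, whose protein restrains myeloid cells, read 7.32 and 7.56 in the tumours of C2M3 and 6.11 to 6.60 elsewhere. Nt5e was followed by Syngr2, at 0.15, Itga3, an integrin subunit gene, at 0.15, and Bcam, an adhesion molecule gene, at 0.18, against a deviation of 0.65. Itga3 read 10.10 and 10.24 in the tumours of C1M5 and 8.60 to 9.28 elsewhere. No test is attached to these names.

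**Figure D4:**
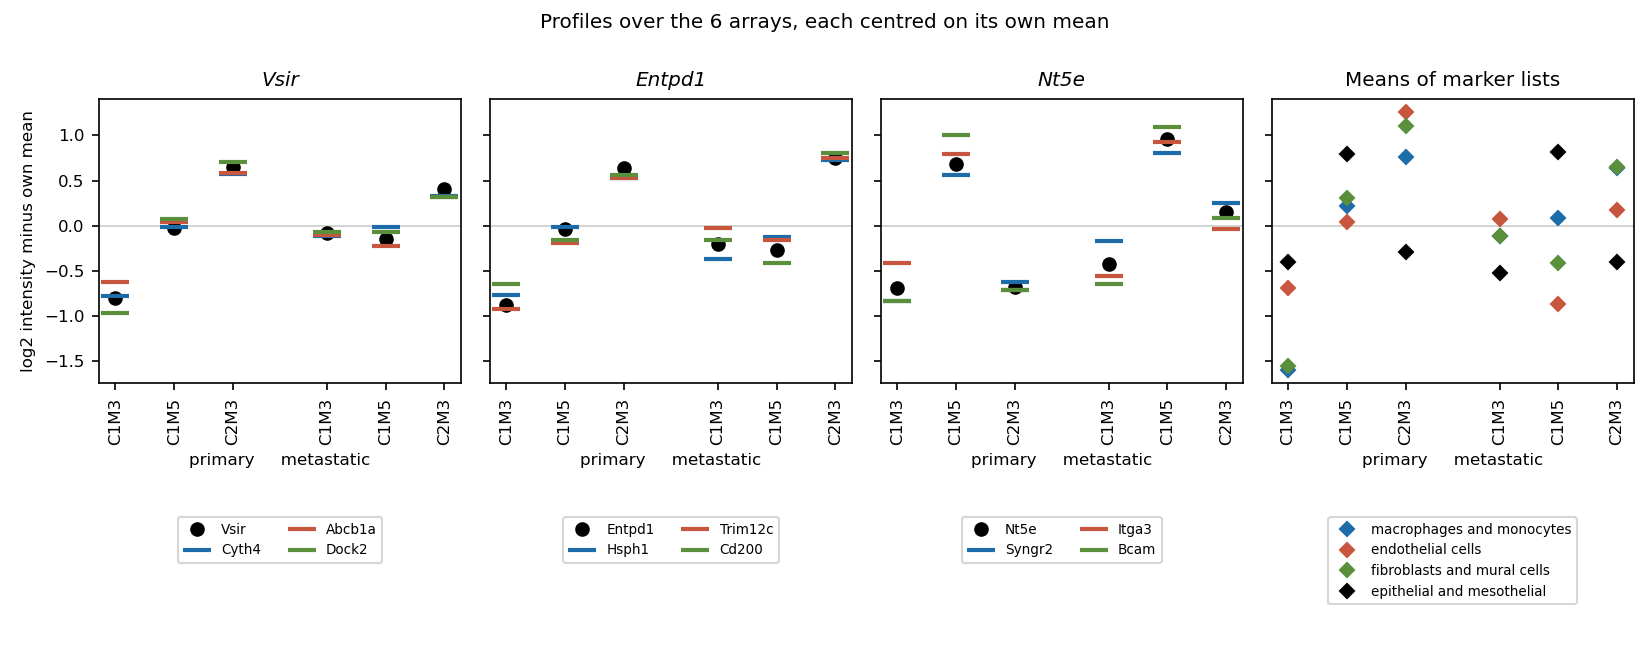
Log2 intensity minus its own mean (vertical axis) on the 6 arrays (horizontal axis) for Vsir, Entpd1 and Nt5e as black dots with the 3 most similar genes as coloured bars, and for the means of 4 marker lists as diamonds. Vsir, Entpd1 and the macrophage list are lowest in the primary tumour of C1M3, and Nt5e and the epithelial and mesothelial list are highest in the tumours of C1M5.

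Other inhibitory receptors gave a like picture. Of 14 measured genes the metastatic mean was higher in 10 and lower in 4, none passed in limma, and the median difference was 0.09. With arrays centred on their medians it was 6 higher and 8 lower, with a median of -0.02. Centring turned the balance of all genes too, to 30.4% higher with a median of -0.09. The same reference holds for each centred list below. Tigit, a checkpoint receptor of T and NK cells, was higher in the metastatic tumour of each mouse, by 0.43, 0.29 and 0.41, but read 3.90 to 4.74. The list held 3 genes above the olfactory and vomeronasal receptor genes, namely Lair1, Sirpa and Lilrb4a, against 38.4% of all genes. Lair1, an inhibitory collagen receptor, differed by 0.75 (SE 0.37), with 1.17, 0.10 and 0.99 in C1M3, C1M5 and C2M3. Sirpa, the receptor for CD47, differed by 0.62 (SE 0.77), with 2.15, -0.11 and -0.16, and Lilrb4a by 0.47 (SE 0.59), with 1.81, 0.00 and -0.39.

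Of 20 other inhibitory ligands and enzymes measured, 13 had a higher and 6 a lower mean, with a median difference of 0.05 and none called in limma. After centring 8 were higher and 12 lower, with a median of -0.06. Cd86, a ligand of CD28 and CTLA-4, differed by 0.78 (SE 0.50), with 1.36, -0.10 and 1.08 in C1M3, C1M5 and C2M3. Arg1, the arginase of suppressive myeloid cells, differed by 0.59 (SE 0.63). Fgl1, a ligand of LAG-3, was lower in the metastatic tumour of each mouse, by 0.21, 1.12 and 0.56, with a mean difference of -0.63 (SE 0.24) and an unadjusted p = 0.0496 (limma adjusted p = 0.842), on a probe set that read 4.27 to 5.41. The ligand genes Nectin2, at 10.39 to 11.08, and Cd47, at 12.54 to 14.41, were above the negative controls on every array. Which cells of the tissue gave these signals was not tested.

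Costimulatory genes were mostly dim. Of 9 measured receptors 7 had a higher and 2 a lower mean, with a median difference of 0.08. Above the olfactory and vomeronasal receptor genes were 0 of them, against 38.4% of all genes. Of 9 ligands 6 were higher and 3 lower, with a median of 0.05. Centring turned both balances, as it did that of all genes. They became 1 higher and 8 lower for the receptors (median -0.03) and 4 higher and 5 lower for the ligands (median -0.06). Cd48, a leukocyte surface ligand, differed by 0.87 (SE 1.09), with 2.30, -0.37 and 0.67 in the 3 mice, and was another gene lowest in the primary tumour of C1M3. No costimulatory gene was called in limma.

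In the adenosine pathway, 13 of 19 listed genes of nucleotide release and breakdown were measured, 7 with a higher and 6 with a lower mean and a median difference of 0.01. After centring 2 were higher and 11 lower, with a median of -0.09. Entpd5, a nucleoside diphosphatase of the endoplasmic reticulum, differed by -0.41 (SE 0.25), Enpp3, an ectonucleotidase, by -0.33 (SE 0.75) and the nucleotide receptor gene P2ry2 by 0.34 (SE 0.61). P2ry2 was highest in both tumours of C1M5, at 10.99 and 11.55 against 9.59 to 10.38 elsewhere, the mouse in which Nt5e was highest. Of 12 listed genes of adenosine sensing, uptake and removal, 9 were measured, 7 higher and 2 lower, with a median of 0.11, which centring changed to 5 higher and 4 lower with a median of 0.0051. The adenosine transporter gene Slc29a1 differed by 0.26 (SE 0.17) and was higher in each mouse, by 0.52, 0.17 and 0.10. The adenosine kinase gene Adk differed by 0.11 (SE 0.32). Of the adenosine receptor genes only Adora3 was measured here, at 3.94 to 4.17. Adora1, Adora2a and Adora2b were not analysed here. None of these genes was called in limma.

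Interferon gamma induces PD-L1 in many cells. In the list of interferon gamma response genes and PD-L1 regulators, 15 of 19 had the higher mean in metastatic tumours and 4 the lower. The list holds Ifng, its receptor genes, Jak1, Jak2, Cmtm6 and Cmtm4 beside genes that interferon gamma induces. Its median difference was 0.11, none was called, and 55.0% of all genes had the higher mean in metastatic tumours. After centring 10 were higher and 9 lower, with a median of 0.0016. Gbp2, a guanylate binding protein gene, differed by 0.88 (SE 0.33, unadjusted p = 0.0445, limma adjusted p = 0.842), Gbp4 by 0.88 (SE 0.37) and the T cell attractant gene Cxcl9 by 1.11 (SE 0.87). By mouse, in the same order as before, the differences were 1.56, 0.18 and 0.90 for Gbp2, 1.47, 0.00 and 1.18 for Gbp4, and 2.58, 0.44 and 0.31 for Cxcl9. These were the largest mean differences of the list. Other genes that interferon gamma induces differed less. Among them Gbp3 differed by 0.36, Psmb9 by 0.36 and Psmb8 by 0.31, on probe sets above the receptor genes. Cxcl10 differed by 0.03, Cxcl11 by -0.02, Irf1 by 0.09 and Socs1 by 0.04, on dim probe sets that were not above them. Cd274 differed by 0.14, 0.28 and 0.00 within the same mice. Ifng itself read 4.04 to 4.14 on all arrays.

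Genes of the cells that carry the checkpoint receptors were also near the controls. Of 11 measured T cell genes 0 were above the negative controls, against 13.7% of all genes, a share to which 0 of 11 is close. Above the olfactory and vomeronasal receptor genes there was 1, against 38.4% of all genes. Cd3e, part of the T cell receptor complex, read 4.29, 5.17 and 5.56 on primary and 5.38, 5.37 and 5.84 on metastatic arrays. Cd4 read 4.38 to 4.95, and Cd8a read 4.09 in all 3 primary tumours. The mean of the T cell list ranged from 4.63 to 5.11 in primary and from 4.86 to 5.17 in metastatic tumours. Of 13 cytotoxic T and NK cell genes 11 had a higher and 2 a lower mean, with a median of 0.13. After centring it was 8 and 5, with a median of 0.03, and without the metastatic tumour of C2M3 it was 7 and 6, with a median of 0.0051. Among them Nkg7, a granule protein gene, was higher in the metastatic tumour of each mouse, by 1.10, 0.54 and 0.83 (mean 0.82, SE 0.27, unadjusted p = 0.0288, limma adjusted p = 0.842). Of 6 measured regulatory T cell genes 4 were higher and 1 lower, with a median of 0.21, and after centring 4 were higher and 2 lower, with a median of 0.10. Foxp3 shares its probe set with other symbols and was not analysed here.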

How the data were processed

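RNA from each of 6 tumours was hybridised to 1 Affymetrix array of whole transcripts. The authors deposited log2 intensities, 1 for each probe set and array. RMA and Transcriptome Analysis Console are named for them, per the submitters' processing notes, with no version. The genome build is not given in the sources used here, and no coordinates are printed. Of 65956 probe sets that are not controls, 30604 carried 1 symbol. Symbols of 827 were updated through Entrez Gene with a RefSeq table (GRCm38.p6), and for a gene with several probe sets the brightest on average was taken, which gave 30142 genes with no filter on dim ones. Groups follow the tissue label and mice the donor label. Tissue was tested with limma 3.58.1 in R 4.3.3 by empirical Bayes, two-sided, at a threshold of 0.05 after Benjamini-Hochberg adjustment across the 30142 genes. Intervals are limma's 95% intervals for 1 gene. The fit was run on simulated data with independent normal errors and no mouse effect, as a check of the code. That run does not tell how many true changes would be missed in these tumours. Pairing by mouse comes from the donor label. After group means were subtracted, primary and metastatic values of one mouse correlated over genes at r = -0.052 in C1M3, 0.35 in C1M5 and 0.073 in C2M3. The highest such correlation with a tumour of another mouse was 0.13 for C1M3, -0.018 for C1M5 and 0.13 for C2M3. Only in C1M5 was the labelled pair the closest, so these values do not bear out the pairing of C1M3 and C2M3. Alternatives were a mouse block, centred arrays, filters on dim genes, array weights, a variance trend, other probe set rules, other control percentiles or sets, and left-out arrays or mice.

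The 10 genes, the lists of pathway and cell type genes and the tests were chosen with earlier results of these data known. All 10 genes are named. The text draws on a fixed rule, up to the 3 genes of each list with the largest mean difference plus set markers, and other list genes (Tigit, Adk, Nectin2, Cd47, Adora3 and Msln among them) were picked as examples after their values were seen. Of the cell type lists whose differences between groups are not described above, the median differences were 0.14 for B and plasma cells (8 genes), 0.12 for dendritic cells (10) and 0.03 for neutrophils (8).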

Additional observations from a re-analysis of the deposited data

How the results depend on the processing

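In each of the 17 alternative limma fits 0 genes were called, and the smallest adjusted p of any gene ranged from 0.174 to 0.972. The share of genes at an unadjusted p under 0.05 was 4.21% in the reported fit, 10.6% with array weights, 5.23% after centring, 2.25% to 9.11% without single arrays and 3.12% to 13.6% without single mice. With the mouse as a replicate block (paired by donor) it was 4.93% (891 genes higher, 594 lower), and the block changed no call. The sign changed, or the difference went to 0, in some setting for 6 of the 10 genes. Centring each array turned Pdcd1lg2 to -0.082 and Lag3 to -0.087, and array weights turned Vsir to -0.077 and Entpd1 to -0.074. Over single arrays and mice left out, the difference ranged from -0.034 to 0.00 for Ctla4, -0.003 to 0.032 for Lag3, -0.25 to 0.474 for Vsir, -0.179 to 0.044 for Lgals9 and -0.21 to 0.547 for Entpd1. Cd274, Pdcd1, Havcr2 and Nt5e kept a positive sign in all settings in which they were tested, but not their size. Over single arrays left out, they ranged from 0.076 to 0.20, 0.059 to 0.366, 0.202 to 0.416 and 0.09 to 0.913, and centring gave Cd274 0.03, Pdcd1 0.09, Havcr2 0.21 and Nt5e 0.35. The median of the 10 genes lay between 0.015 and 0.199. The number of members above the controls was 1, but 0 at the 99th percentile and 4 against the receptor genes. Signal near the controls limits 6 of the 10 genes, which lay below the 75th percentile of the negative controls on every array.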

Other observations

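Identical values on several arrays were frequent in the deposited table, and more so among dim genes. The same value stood on at least 3 of the 6 arrays in 41.3% of genes in the lowest of 4 equal classes of mean level, in 32.8% and 26.4% of the classes above it and in 14.0% of the highest class. For 246 genes all 6 values were equal. Pdcd1, with 1 value on all 3 primary arrays, and Ctla4, with 1 value on 5 arrays, are examples.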
